A study of Mus musculus with 4 samples.

Results

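The genes described here are 10 genes known to be induced by interferon-gamma in the mouse: the ubiquitin-like modifier Ubd, the guanylate-binding proteins Gbp2, Gbp3 and Gbp6, the immunity-related GTPases Igtp, Irgm1, Iigp1 and Ifi47, and the transcription factors Irf1 and Irf8. They were matched by gene symbol, and all 10 had a value on each of the 4 arrays, out of 11842 genes that did. The set was chosen from measured values of these arrays, because Ubd was among the highest genes with both coatings, and the question was whether other interferon-gamma targets followed it. The values below are therefore a description and carry no test.

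RNA came from host tissue around porous polyethylene discs implanted for 7 days beneath the skin of the back of male C57BL/6 mice aged 8 weeks. The discs were coated with collagen, a cell-adhesive protein, coated with PMB, a phospholipid-like polymer that resists protein adsorption, or left non-coated, and tissue within 100 µm of the disc was cut out by laser. Each of the 4 two-colour arrays compared a coated scaffold with the non-coated one, with the coated RNA in Cy5 on replicate 1 and in Cy3 on replicate 2. There was 1 mouse per scaffold, and the 2 arrays of a coating are a dye swap of the same RNA, so each coating counts as 1 sample and differences between mice were not measured. Ratios are log2 of coated over non-coated unless stated otherwise, with ± as the SD of the 2 arrays, which holds technical error only. A gene was called higher or lower where the mean of its 2 log2 ratios reached 1 in size, that is 2-fold, and both arrays gave that sign. In a mixed extract, fewer cells of a type and less RNA per cell cannot be told apart.

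Interferon-gamma is a cytokine of T cells and NK cells. Its receptor acts through the kinases Jak1 and Jak2, and first targets such as Irf1 are switched on through a promoter element called GAS. Irf1 then binds interferon-stimulated response elements, called ISRE, together with other members of its family. The best known products in mouse macrophages and stromal cells are 2 families of GTPases, the guanylate-binding proteins and the immunity-related GTPases, which assemble on the vacuoles of intracellular parasites and bacteria. Ubd, also called FAT10, is attached to proteins and directs them to the proteasome, and tumour necrosis factor acts together with interferon-gamma to induce it.

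The promoters of Ubd, Irf1 and 4 of the GTPase genes are shown because they hold the elements through which these cytokines are known to act. The sequences are from RefSeq on build GRCm38.p6 and cover the 100 bases before an annotated start, 5′ to 3′ on the strand of the gene. Where a gene had a further start, as Gbp3 and Irf1 did, the first window is shown. The gene Gbp3 is annotated from base 142560016, which lies within its stretch. Capitals mark matches on either strand to GAS (TTCNNNGAA), to the core of ISRE (GAAANNGAAA), to the shorter IRF site (AANNGAAA), which is contained in every ISRE core, or to the kappaB consensus of the factor NF-kappaB.
Ubd, chr17:37193792-37193891, plus strand: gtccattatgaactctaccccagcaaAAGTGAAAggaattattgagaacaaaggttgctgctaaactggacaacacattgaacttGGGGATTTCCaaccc
Gbp2, chr3:142620563-142620662, plus strand: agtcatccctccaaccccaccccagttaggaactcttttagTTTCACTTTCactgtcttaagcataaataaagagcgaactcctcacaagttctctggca
Gbp3, chr3:142559944-142560043, plus strand: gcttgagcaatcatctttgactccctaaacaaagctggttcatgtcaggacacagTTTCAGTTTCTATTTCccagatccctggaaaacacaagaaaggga
Igtp, chr11:58199456-58199555, plus strand: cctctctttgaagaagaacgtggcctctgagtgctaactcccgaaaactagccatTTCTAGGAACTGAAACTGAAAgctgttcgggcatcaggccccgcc
Irgm1, chr11:48871421-48871520, minus strand: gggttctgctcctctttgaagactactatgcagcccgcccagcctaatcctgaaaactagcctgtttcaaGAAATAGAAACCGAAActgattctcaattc
Irf1, chr11:53769914-53770013, plus strand: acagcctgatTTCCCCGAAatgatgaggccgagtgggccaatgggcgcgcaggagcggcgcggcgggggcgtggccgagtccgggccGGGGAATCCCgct

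A promoter window of 300 bases around each start, taken from the RefSeq table, was searched for 8 of the 10 genes. A further window of Gbp3, of Irf1 and of Irf8 held no match. Gbp6 had no window in the RefSeq table, and Iigp1, on chromosome 18, was left out of the search. The shares over all genes were computed without leaving out that chromosome. The ISRE core was present in 4 of the 8 genes, Gbp2, Gbp3, Igtp and Irgm1, against 3.99% of the 27025 genes with a window. The shorter IRF site was present in 6 of the 8, in Ubd and Ifi47 besides these 4, against 26.7% of all genes with a window. GAS was present in Igtp, Irf1 and Irf8, against 9.55% of all genes. The kappaB consensus was present in Ubd, Gbp2 and Irf1, also against 9.55% of all genes. In Ubd the IRF site began at position -74 from the start and the kappaB match at -15. These matches describe the letters of the windows and do not show that a factor was bound at the scaffolds.

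Ubd stood at the high end of the distribution with both coatings, while the 7 GTPase genes had negative ratios for collagen and positive ones for PMB. This held on both arrays of each coating, as it did for 11.4% of all genes. Irf1 was above 0 with both coatings and Irf8 was close to 0. Of the 10 genes, 1 was called higher with collagen, Ubd, where 2.21% of all genes were, and 1 was called lower, Gbp3, where 3.38% of all genes were. With PMB 2 of the 10 were called higher, Ubd and Gbp6, where 0.616% of all genes were, and none was called lower, where 1.4% of all genes were. On PMB replicate 2 alone 4 were higher by that threshold, with Igtp and Iigp1 added. The share of all genes past the threshold on that array alone was not computed. The median over the 10 genes was -0.33 with collagen and 0.58 with PMB, against medians over all genes of 0.036 and 0.022. Both coatings were set against the same non-coated extract, so the ratios of a gene with collagen and with PMB are not independent.

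**Figure D1:**
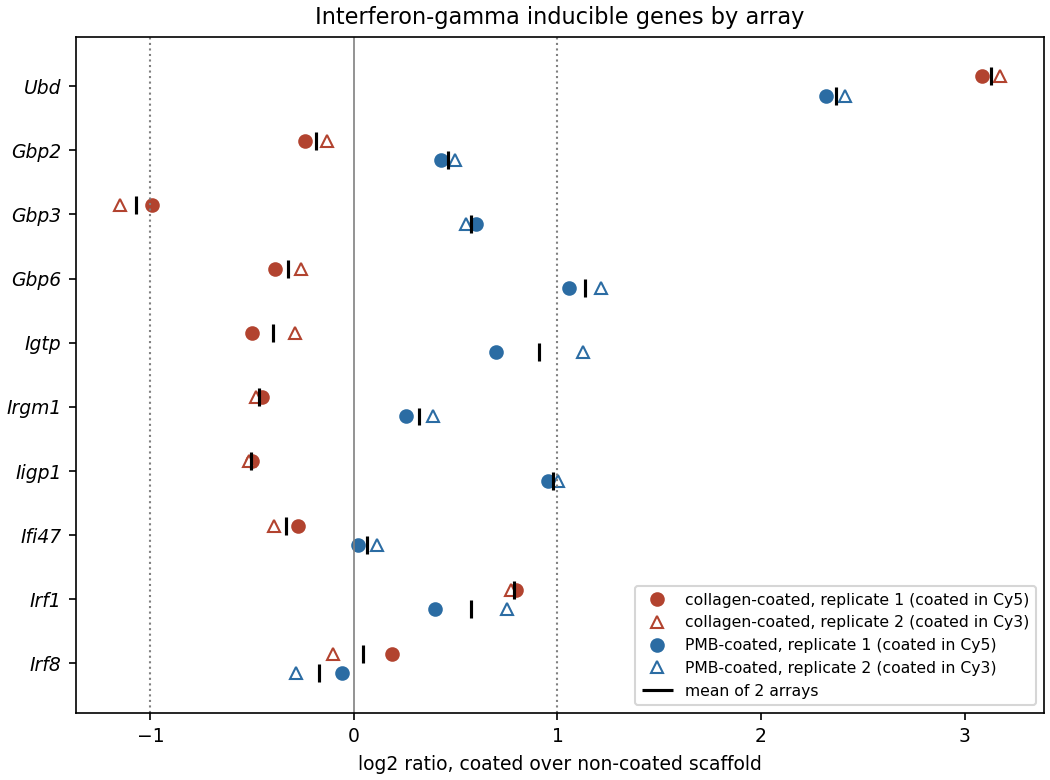
Log2 ratio of coated over non-coated scaffold for the 10 genes on each of the 4 arrays, with collagen in red, PMB in blue, filled circles for replicate 1, open triangles for replicate 2 and black ticks for the mean of 2 arrays. Dotted lines mark a 2-fold difference, which Ubd passed with both coatings while the 7 GTPases lay left of 0 with collagen and right of 0 with PMB.

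Ubd had log2 ratios of 3.09 and 3.17 on the 2 collagen arrays and of 2.32 and 2.42 on the 2 PMB arrays. The means were 3.13 ± 0.062 with collagen, an 8.75-fold higher level, and 2.37 ± 0.068 with PMB, a 5.16-fold higher level. Among 11842 genes Ubd held rank 6 from the top with collagen and rank 2 with PMB. The arrays of a coating differed by far less than the ratio itself. Between the coatings, the collagen over PMB ratio of Ubd was 0.76 ± 0.0057, which did not reach 2-fold. The values of Ubd rest on 1 probe.

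The guanylate-binding proteins are large GTPases that coat pathogen vacuoles and take part in inflammasome activation. Gbp3 had ratios of -0.99 and -1.15 on the collagen arrays and of 0.60 and 0.55 on the PMB arrays. Its means were -1.07 ± 0.11 with collagen, 2.10-fold lower, and 0.58 ± 0.037 with PMB. Gbp3 was thus the single member called lower with collagen, and on replicate 1 alone it stayed just short of 2-fold. Gbp6 had ratios of -0.39 and -0.26 on the collagen arrays and of 1.06 and 1.22 on the PMB arrays. Its means were -0.32 ± 0.090 with collagen and 1.14 ± 0.11 with PMB, 2.20-fold higher, which put it at rank 39 of 11842 genes with PMB. The array probe of Gbp6 may also bind RNA of its close relative Gbp10, for which no probe was named here. Gbp2 had ratios of -0.24 and -0.13 on the collagen arrays and of 0.43 and 0.50 on the PMB arrays, with means of -0.19 ± 0.078 and 0.46 ± 0.051. For these 3 genes the collagen and PMB arrays did not overlap, with collagen lower, as was so for 29.7% of all genes.

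The remaining guanylate-binding proteins were less uniform. Of 8 others listed, 5 had values on all arrays. None of these was called with collagen, and 1 was called higher with PMB, where 0.616% of all genes were. Gbp4 was at 0.86 ± 0.21 with collagen and 1.15 ± 0.11 with PMB, Gbp11 at 0.91 ± 0.25 and 0.67 ± 0.32, and Gbp5, a promoter of inflammasome assembly, at 0.76 ± 0.13 and 0.64 ± 0.36. These 3 genes were above 0 on all 4 arrays. Gbp7 had ratios of -0.40 ± 0.10 for collagen and -0.053 ± 0.17 for PMB, and Gbp9 of -0.056 ± 0.33 and 0.091 ± 0.11. The 2 kinds of pattern did not follow the position of the genes. Gbp3, Gbp2, Gbp5 and Gbp7 lie together on chromosome 3, and Gbp4, Gbp6, Gbp9 and Gbp11 lie together on chromosome 5, so that each cluster held genes above 0 and genes below 0 with collagen.

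The immunity-related GTPases are a family of the mouse that attacks parasite vacuoles, in which Igtp, Irgm1 and Irgm2 act as regulators and Iigp1 as an effector. Iigp1 had ratios of -0.50 and -0.51 on the collagen arrays and of 0.95 and 1.00 on the PMB arrays. Its means were -0.51 ± 0.0085 with collagen and 0.98 ± 0.037 with PMB. The PMB value was 1.97-fold, just short of 2-fold, at rank 81 of 11842 genes. Igtp had ratios of -0.50 and -0.29 on the collagen arrays and of 0.70 and 1.13 on the PMB arrays, with means of -0.40 ± 0.15 and 0.91 ± 0.30. The PMB arrays of Igtp differed from each other more than those of the other GTPases among the 10 genes. Irgm1 had ratios of -0.45 and -0.48 on the collagen arrays and of 0.25 and 0.39 on the PMB arrays, with means of -0.47 ± 0.023 and 0.32 ± 0.094. Its 2 measured probes were close to each other, with collagen ratios of -0.52 and -0.41 and PMB ratios of 0.34 and 0.30. Ifi47 had ratios of -0.28 and -0.39 on the collagen arrays and of 0.019 and 0.11 on the PMB arrays, with means of -0.33 ± 0.082 and 0.066 ± 0.066. Ifi47 was the GTPase of the set closest to 0 with PMB, where its mean was no larger than its SD.

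Of 14 other genes of this family or its relatives, 5 had values on all arrays, and none was called with collagen or with PMB. The regulator Irgm2, a neighbour of Igtp on chromosome 11, was at -0.47 ± 0.20 with collagen and 0.76 ± 0.21 with PMB. Tgtp1 had ratios of 0.15 ± 0.096 for collagen and 0.81 ± 0.13 for PMB, and its probe may also bind the almost identical Tgtp2. The very large interferon-inducible GTPase Gvin1 was at -0.80 ± 0.17 with collagen and 0.21 ± 0.079 with PMB. Gm12250 was at -0.27 ± 0.43 and 0.095 ± 0.082, and Irgq at 0.017 ± 0.27 and 0.11 ± 0.30. All 5 had a mean above 0 with PMB, and for Irgq it was smaller than the SD of the arrays.

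Irf1, which relays the interferon-gamma signal to ISRE elements, did not share the pattern of the GTPases. It had ratios of 0.80 and 0.77 on the collagen arrays and of 0.40 and 0.75 on the PMB arrays. The means were 0.78 ± 0.016 with collagen and 0.58 ± 0.25 with PMB, neither of which reached 2-fold. The 2 measured probes of Irf1 gave 0.96 and 0.61 on the mean of the collagen arrays, against 0.40 and 0.75 for PMB, and so were in opposite order in the 2 comparisons. Irf8, a factor of monocytes, dendritic cells and B cells, had ratios of 0.19 and -0.10 on the collagen arrays and of -0.058 and -0.28 on the PMB arrays. Its means were 0.043 ± 0.20 with collagen and -0.17 ± 0.16 with PMB, and the collagen arrays lay on opposite sides of 0. Of 7 other interferon regulatory factors, 6 were measured and none was called with collagen or with PMB. Irf4, a factor of lymphocytes and alternatively activated macrophages, had the largest ratio of them with collagen, -0.95 ± 0.085, and was at 0.16 ± 0.21 with PMB.

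**Figure D2:**
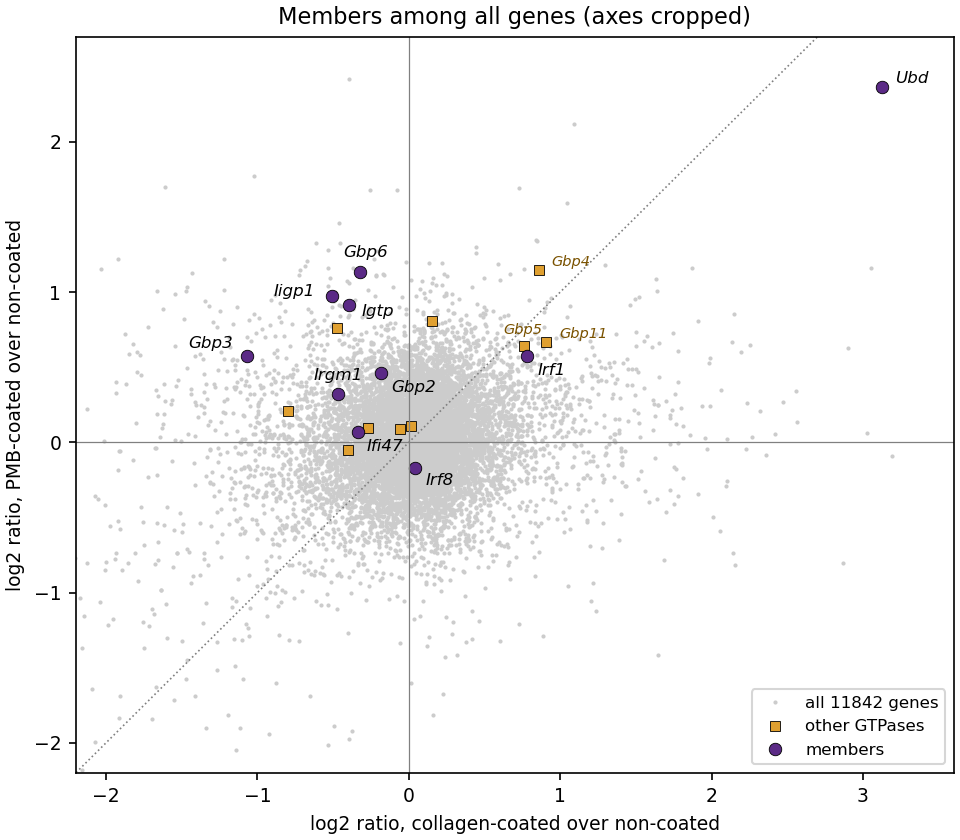
Mean log2 ratio with PMB against mean log2 ratio with collagen for 11842 genes in grey, the 10 genes in purple and 10 other GTPase genes in orange, with the dotted line at equal ratios and the axes cropped. Ubd stands apart at 3.13 and 2.37, Irf1 lies near Gbp4, Gbp5 and Gbp11, and the 7 GTPases among the 10 genes lie left of 0 with collagen and above 0 with PMB.

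Set directly against each other, the coatings gave lower ratios of the GTPases for collagen. Of the 10 genes, 4 were called lower for collagen over PMB, Gbp3, Iigp1, Gbp6 and Igtp, where 3.67% of all genes were. None of the 10 was called higher, where 2.74% of all genes were. The collagen over PMB ratios were -1.65 ± 0.074 for Gbp3, 3.13-fold lower, -1.49 ± 0.045 for Iigp1, -1.46 ± 0.022 for Gbp6 and -1.31 ± 0.16 for Igtp. Irgm1 followed at -0.79 ± 0.12, Gbp2 at -0.65 ± 0.028 and Ifi47 at -0.40 ± 0.15. These differences were taken within a replicate number, so their ± is the SD of 2 such differences. Crossing the replicate numbers cannot change a mean, nor the call of a gene whose collagen and PMB arrays do not overlap. This covers the 4 called genes, so their unchanged calls were fixed in advance. The SD could change, and with the numbers crossed it was 0.13 for Ubd, 0.45 for Igtp, 0.41 for Irgm2, 0.36 for Irf8 and 0.57 for Gbp11. In the 7 GTPases the collagen arrays lay below the PMB arrays without overlap, as in 29.7% of all genes. In Ubd and Irf1 the collagen arrays lay above the PMB arrays, as in 30.7% of all genes. For Irf1 the nearest arrays were close, at 0.77 with collagen and 0.75 with PMB. Irf1 was at 0.21 ± 0.27 and Irf8 at 0.21 ± 0.045, and for Irf1 the SD exceeded the ratio. For Irf8 the SD with the numbers crossed exceeded it too, and its collagen and PMB arrays overlapped. The median over the 10 genes was -0.72, against 0.0012 over all genes. Among the other GTPases Irgm2 was at -1.23 ± 0.0028 and Gvin1 at -1.01 ± 0.090. Gbp4, Gbp5 and Gbp11 were at -0.29 ± 0.32, 0.12 ± 0.23 and 0.24 ± 0.073, and for Gbp11 the SD with the numbers crossed exceeded the ratio.

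**Figure D3:**
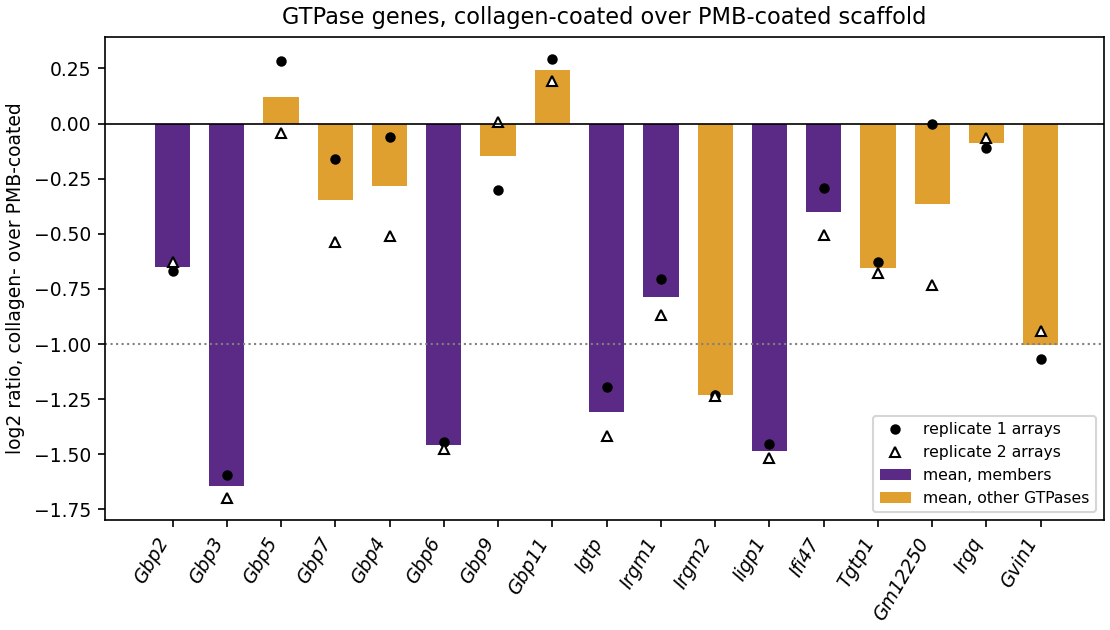
Log2 ratio of collagen-coated over PMB-coated scaffold for 17 measured GTPase genes, with bars for the mean of 2 arrays, circles for the replicate 1 arrays and triangles for the replicate 2 arrays. Purple bars are genes of the set and orange bars other GTPases. Of the 17, 6 reach the dotted 2-fold line, where 3.67% of all genes were called lower.

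The signal that leads to these genes could be followed in part. Of 11 probes named Ifng, 4 had a value on collagen replicate 1, 2 on PMB replicate 1 and none on either replicate 2 array, so no ratio of interferon-gamma itself can be given. Of 14 genes listed for the ligand, its receptor and its signalling, 12 were measured and none was called with collagen or with PMB, with medians of 0.11 with collagen and 0.028 with PMB. The receptor chain Ifngr1 had ratios of 0.25 ± 0.023 for collagen and 0.45 ± 0.18 for PMB, and the chain Ifngr2 of 0.11 ± 0.0060 and -0.061 ± 0.050. Stat2, which the type I pathway also uses, was at -0.71 ± 0.10 and 0.12 ± 0.088. The kinase Jak1 was at -0.00025 ± 0.21 and 0.33 ± 0.32, and Jak2 at 0.44 ± 0.24 and -0.33 ± 0.037. Socs1, a feedback inhibitor induced by the pathway, was at 0.33 ± 0.32 with collagen and 0.12 ± 0.032 with PMB. Among 8 measured genes for inducers of interferon-gamma and their receptors, none was called with PMB. With collagen 2 were called higher, where 2.21% of all genes were. These 2 were the interleukin-12 receptor chain Il12rb1 at 1.32 ± 0.087 and the interleukin-18 receptor chain Il18r1 at 1.28 ± 0.26. With PMB they stood at 0.53 ± 0.28 and -0.70 ± 0.020.

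Other known targets of interferon-gamma were spread on both sides of 0. Cxcl9, a chemokine for activated T cells, had ratios of 0.76 ± 0.093 for collagen and 1.15 ± 0.018 for PMB. It was the 1 of 4 measured chemokine genes called higher with PMB, where 0.616% of all genes were. Cxcl10, a chemokine for the same receptor, was at -0.26 ± 0.033 with collagen and 0.14 ± 0.31 with PMB. Of 17 measured genes of antigen presentation, none was called with collagen or with PMB, with medians of 0.11 with collagen and 0.023 with PMB. The class II gene H2-Aa had ratios of 0.80 ± 0.22 for collagen and -0.53 ± 0.19 for PMB, and H2-Ab1 of 0.74 ± 0.24 and -0.43 ± 0.12, so they were higher with collagen than with PMB. The class I genes H2-K1 and H2-D1 lay the other way, at -0.15 ± 0.24 and -0.16 ± 0.18 for collagen and 0.46 ± 0.49 and 0.45 ± 0.29 for PMB. The class II regulator Ciita was at 0.41 ± 0.20 with collagen and 0.039 ± 0.20 with PMB. Of 18 measured macrophage effector genes the medians were 0.11 with collagen and 0.055 with PMB. None was called with PMB, and 2 were called higher with collagen, where 2.21% of all genes were. These 2 were Acod1, which makes itaconate, at 1.27 ± 0.12 and the adhesion molecule Icam1 at 1.06 ± 6.4e-05 as a mean over 11 probes, with PMB values of 0.42 ± 0.15 and 0.25 ± 0.056. Batf2, a factor of classically activated macrophages, was at 0.10 ± 0.15 with collagen and 1.00 ± 0.27 with PMB, which put it close to the GTPases with PMB. Fcgr1 had ratios of -0.94 ± 0.17 for collagen and 0.031 ± 0.023 for PMB, and Sp110 of -0.81 ± 0.19 and 0.56 ± 0.0085. Of the 18 effector genes, 13 were above 0 and 5 below with collagen, and 12 above and 6 below with PMB.

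Genes of the type I interferon response, which share ISRE elements with the GTPases, and genes of the NF-kappaB response had medians on opposite sides of 0 with collagen. Of 21 measured type I genes, 7 were called lower with collagen, where 3.38% of all genes were. None was called higher, where 2.21% of all genes were, and the median was -0.88. With PMB none was called, and the median was 0.24. Among them Ifit1, which binds viral RNA, had ratios of -1.57 ± 0.36 for collagen and 0.26 ± 0.30 for PMB, and the antiviral GTPase Mx2 of -1.21 ± 0.27 and 0.36 ± 0.0064. The corresponding medians of the 7 GTPases were -0.40 with collagen and 0.58 with PMB. Of 19 measured genes induced by tumour necrosis factor or NF-kappaB, 7 were called higher with collagen, where 2.21% of all genes were. None was called lower, where 3.38% of all genes were, and the median was 0.69. Icam1 was among those called higher and was also counted among the macrophage effector genes. With PMB the median was 0.12 and 1 gene was called lower, where 1.4% of all genes were. Tnf itself had ratios of 1.55 ± 0.10 for collagen and 0.68 ± 0.079 for PMB. The mitochondrial superoxide dismutase Sod2 had ratios of 1.35 ± 0.26 for collagen and 0.015 ± 0.35 for PMB, and the cytokine Il1b of 1.28 ± 0.34 and -0.26 ± 0.17.

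**Figure D4:**
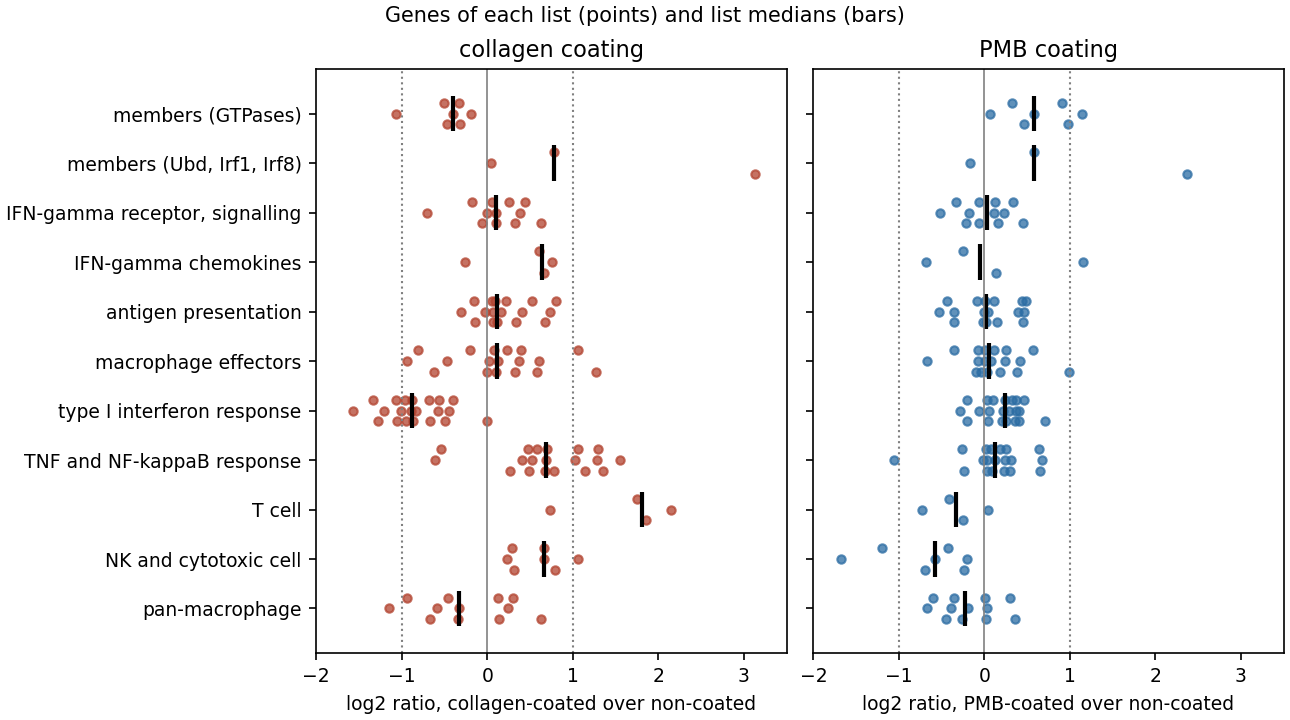
Log2 ratio with collagen on the left and with PMB on the right for each measured gene of 11 groups, 1 point per gene, with black bars for the group medians and dotted lines at a 2-fold difference. With collagen the GTPases and the type I interferon genes have medians of -0.40 and -0.88, and the genes of the NF-kappaB response one of 0.69.

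Of 16 genes listed as ubiquitin-like modifiers or enzymes that conjugate or bind them, 12 were measured and none was called with collagen or with PMB. Isg15, the modifier of the type I response, was at -0.83 ± 0.021 with collagen and 0.40 ± 0.27 with PMB. Uba6, which activates Ubd for conjugation, was at -0.30 ± 0.34 and -0.33 ± 0.26, and its partner Ube2z was at 0.084 ± 0.060 and 0.24 ± 0.14. None of the 12 came near the ratios of Ubd.

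The genes with ratios most like Ubd, by Euclidean distance over the 4 arrays, were Clstn2 at a distance of 1.72, Stfa3 at 2.40, Slc9b2 at 2.47, Car4 at 2.49 and Reg1 at 2.55. Clstn2, a calsyntenin, was at 3.05 ± 0.043 with collagen and 1.16 ± 0.17 with PMB, so that with PMB none of the 5 was as high as Ubd. Among the other 9 genes, Irf1 was nearest at rank 196 by distance, and the rest held ranks between 2655 for Gbp6 and 11042 for Gbp3. Outside the set, Tnf held rank 30, Gbp4 rank 64, Cxcl9 rank 94, Gbp11 rank 130 and Gbp5 rank 189. The 4 arrays are 2 technical repeats of 2 comparisons with a shared reference, so the distance describes these extracts.

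Markers of cells that make or answer to interferon-gamma were measured on the same arrays. Of all genes, 2.21% were called higher and 3.38% lower with collagen, and 0.616% higher and 1.4% lower with PMB. With collagen 55.1% of all genes were above 0, and with PMB 53.1%. Of 8 T cell markers 4 were measured, between 0.73 and 2.14 with collagen and between -0.73 and 0.047 with PMB, and 3 were called higher with collagen. Cd3g, a chain of the T cell receptor complex, was the highest with collagen. Cd3e, Cd4 and Cd8a had no probe with a value on all arrays. Of 8 NK and cytotoxic cell markers 7 were measured, all above 0 with collagen, between 0.22 and 1.06, and all below 0 with PMB, between -1.67 and -0.21. Of these, 1 was called higher with collagen and 2 were called lower with PMB. Of 14 pan-macrophage markers 12 were measured, with medians of -0.34 with collagen and -0.23 with PMB, and 1 was called lower with collagen. The 5 measured dendritic cell markers of 9 had medians of 0.064 and -0.20, and 1 was called higher with collagen. The 6 blood endothelial markers had medians of 0.69 and 0.33, and none was called. Of 6 B cell markers 2 were measured, at medians of 0.15 and -0.51. The part of these cells in the ratios of Ubd, the GTPases, Irf1 and Irf8 was not tested.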

How the data were processed

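The authors amplified and labelled RNA of the laser-cut tissue, hybridized it to Agilent whole mouse genome arrays, quantified spots with GenePix Pro and normalized the dyes by LOWESS. The deposited values are log2 ratios of Cy5 to Cy3. The sources used here do not give how scans at different gain were combined or why spots were left empty. By array, 52.3% to 60.5% of 43377 probes had a value, and genes with no probe measured on all arrays have no ratio here. Before any sign was turned, the array medians were 0.015 for collagen replicate 1, -0.035 for collagen replicate 2, 0.014 for PMB replicate 1 and -0.035 for PMB replicate 2. The deposited replicates correlated at -0.79 for collagen and -0.66 for PMB, and the labels give the coated sample in Cy3 on replicate 2, so its sign was turned.

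The platform annotation gave 1 symbol to 33651 probes, more than 1 to 56 and no name to 9670. Symbols were updated through the RefSeq gene table. Probes lacking a value on any array were left out, and the remaining probes of a gene were averaged. Counts used a mean log2 ratio of at least 1 in size and 1 sign on both arrays. No test was made, because the arrays of a coating share their RNA. Alternatives were single arrays, other summaries of probes, centring, scaling, other thresholds and other probe filters, and, added after seeing the data, crossed replicate numbers for collagen over PMB.

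Members and gene lists were chosen with earlier results of these data known. The genes named are all members, all measured guanylate-binding proteins and immunity-related GTPases, genes needed for the role of ligand, receptor or transducer, and at most 5 genes of largest ratio from each list. Cd3e, Cd4, Cd8a, H2-D1, H2-K1 and Ube2z were named after their values were seen. The counting was tested on simulated data. The arrays were scaled, as an alternative, with limma 3.58.1 in R 4.3.3, and all else was computed in Python 3.11.15 with numpy 2.4.6 and pandas 2.3.3.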

Additional observations from a re-analysis of the deposited data

Results flagged for a closer look

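For 22 of the 53 named genes with a value, both collagen arrays lay on one side of 0 and both PMB arrays on the other, as for 23.8% of all 11842 genes. The named genes were in part picked for large ratios, and Fcgr1 and Sp110 were not among the 53. This difference was not tested, and both comparisons use the same non-coated RNA. All 7 GTPases of the set were among them, with collagen over PMB log2 ratios of -1.65 for Gbp3, -1.49 for Iigp1, -1.46 for Gbp6, -1.31 for Igtp, -0.79 for Irgm1, -0.65 for Gbp2 and -0.40 for Ifi47. The GTPases Irgm2 and Gvin1, which are not in the set, were at -1.23 and -1.01.

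Genes of the type I response and its factors ran the same way, with -1.83 for Ifit1, -1.57 for Mx2, -1.24 for Isg15 and -0.83 for Stat2, as did Irf4 at -1.10 and H2-D1 at -0.61. The opposite direction, higher with collagen, held for Cd3g at 2.88, Il18r1 at 1.98, Il1b at 1.55, H2-Aa at 1.33, H2-Ab1 at 1.17, Jak2 at 0.78 and Ifngr2 at 0.17. Ubd, Irf1 and Irf8 were not among the 22.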

How the results depend on the processing

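Each coating rests on 1 mouse and 1 dye swap, so the spread between animals and any difference of laser cutting between discs are unknown, and genes with empty spots, Ifng among them, have no value. No paired analysis was possible because the values come from no test. The replicate numbers mark the dye orientation, and collagen over PMB differences were taken within them. Crossing the numbers between coatings, an alternative chosen after seeing the data, left 4 of the 10 genes lower and 0 higher. This outcome was fixed in advance, since crossing keeps every mean and the arrays of these 4 genes do not overlap. Leaving out 1 array gave 0 to 1 genes at least 2-fold lower with collagen, 0 without replicate 2, since Gbp3 then missed the threshold. It gave 2 to 4 genes at least 2-fold higher with PMB, 4 without replicate 1, where Igtp and Iigp1 joined Ubd and Gbp6. For single arrays the share of all genes was not computed, so these counts have no background beside them. The median over the 10 genes with collagen was -0.28 without replicate 1 and -0.33 without replicate 2. With the arrays centred on their medians it was -0.35. When each array had to reach 2-fold, 0 genes were lower with collagen. At 1.5-fold, 2 genes were higher with collagen (6.4% of all genes), 4 with PMB (4.32%) and 1 for collagen over PMB (9.35%), where 6 were lower (10.2%). Single-gene values changed sign in 3 instances. Irf8 with collagen was -0.10 without replicate 1 and -0.040 with the probe of smallest dye-swap difference, and Irf1 for collagen over PMB was -0.14 with that probe.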
